A study of Mus musculus with 2 samples.

Results

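The 30 genes described here encode the machinery of fatty acid oxidation and 2 of its regulators: uptake and activation of the fatty acid, the carnitine shuttle, the mitochondrial beta-oxidation spiral with its auxiliary enzymes, electron transfer, peroxisomal beta-oxidation, acyl-CoA thioesterases, and Ppara and Ppargc1a. They were chosen by name, and each of the 30 matched 1 row of the count tables, which hold 31053 genes. The cells came from lungs of C57BL/6JRj mice aged 3 months (young) or 18 months (old), given saline (control) or LPS, the bacterial endotoxin used to injure the lung, at 2.5 mg/kg, and killed 24 h later. No genetic modification is named for any group. The lungs were lavaged and the agarose-filled airways removed before mincing, which limits what these libraries show of airspace macrophages and of airway cells. The dispase-digested suspension was stained for EpCAM, a surface protein of epithelial cells, with a hashtag antibody of its own for each group, sorted for EpCAM-positive living cells, and pooled in equal number on 1 10x Genomics lane. The whole experiment was then repeated, so each of the 4 groups has 2 libraries, 1 per lane. How many mice each library holds is not stated. P-values rest on the spread between these 2 runs, pooled over groups, with each gene's variance drawn toward the trend over all genes.

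Fatty acids enter the cell partly through transporters, are activated to acyl-CoA, and cross the mitochondrial membranes as carnitine esters. Inside, a repeated cycle of dehydrogenation, hydration, the second dehydrogenation and thiolysis shortens the chain, and electrons pass through the electron-transfer flavoprotein to the respiratory chain. Peroxisomes shorten very long and branched chains first. PPAR-alpha, a nuclear receptor that binds fatty acids, and its coactivator PGC-1alpha raise transcription of many of these enzymes in liver, heart and other tissues. Alveolar epithelial type II (AE2) cells, the surfactant-secreting cells of the alveolus, both make and take up lipid, so they handle large amounts of fatty acid.

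Acadl and Cd36 had the largest called change after LPS in each direction in AE2-like cells, and their promoter windows are shown to locate both genes. Each window runs from 250 bases before to 50 bases after the RefSeq start (GRCm38.p6), on the strand of the gene. Acadl lies on the minus strand with its window at chr1:66863260-66863559, and Cd36 on the minus strand at chr5:17835847-17836146, inside the longer Ensembl gene of the count tables, chr5:17781690-17888801. Capitals mark the core AGGTCA, which in Cd36 is read as its reverse complement, TGACCT, and which the Acadl window lacks; it is the unit from which response elements of PPAR and its RXR partner are built.
Acadl: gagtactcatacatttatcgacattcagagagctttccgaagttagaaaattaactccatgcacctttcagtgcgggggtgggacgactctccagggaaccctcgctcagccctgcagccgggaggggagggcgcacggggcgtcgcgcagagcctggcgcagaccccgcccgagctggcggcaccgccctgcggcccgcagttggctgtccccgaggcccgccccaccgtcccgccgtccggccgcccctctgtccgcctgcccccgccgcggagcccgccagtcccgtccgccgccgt
Cd36: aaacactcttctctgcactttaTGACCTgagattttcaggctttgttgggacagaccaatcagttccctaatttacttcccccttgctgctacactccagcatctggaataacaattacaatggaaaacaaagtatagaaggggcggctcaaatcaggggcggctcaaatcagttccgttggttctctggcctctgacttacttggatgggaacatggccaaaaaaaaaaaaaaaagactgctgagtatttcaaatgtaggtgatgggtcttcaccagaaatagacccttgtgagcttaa
RefSeq windows were found for 26 of the 30 genes (27 windows). The core AGGTCA stood in 4 of them, those of Acadm, Acadvl, Cd36 and Cpt1a, and in 16.3% of all 32851 windows. The full PPAR element, AGGTCA repeated in the same direction with 1 base between the copies, stood in 0 of the 27 and in 0.0396% of all windows. TCAAGGTCA, the element of the estrogen-related receptors, which itself contains AGGTCA, stood in 0 of the 27 and in 0.423% of all. A match describes the letters and is not a measured binding site. Hadha and Hadhb, which encode the subunits of the trifunctional protein, lie head to head on chromosome 5 with 86 bases between their annotated starts (GRCm38).

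The 8 libraries held 6228266 to 15435789 UMIs (unique molecular identifiers, 1 per captured RNA molecule) and 14048 barcodes; 2 barcodes occurred on both lanes. After filtering, 11232 cells formed 21 clusters. AE2-like cells were 8842 of them, ciliated-like cells 904 and alveolar macrophage-like cells 450; each name rests on marker genes. All 10 AE2 markers, all 10 ciliated markers and all 10 alveolar macrophage markers were detected in every library of their class; Sftpc, the surfactant protein that defines AE2 cells, was at 39109 to 254770 CPM in AE2-like cells. UMIs were summed per library and class, and levels are given as CPM, the UMIs of a gene scaled to a common total; the assay counts 3′ ends, so CPM does not grow with gene length. AE2-like sums held 737 to 1417 cells and 4179087 to 12789161 UMIs, ciliated-like sums 52 to 266 cells and 269818 to 1681218 UMIs. Alveolar macrophage-like cells numbered 30 to 288 in control libraries and 5 to 37 after LPS, too few after LPS for a test. A gene is called changed where the Benjamini-Hochberg adjusted p of edgeR's quasi-likelihood test over all genes of the class is under 0.05.

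In AE2-like cells, Cd36 and Acsl5, of fatty acid uptake and activation, and Acadsb, an acyl-CoA dehydrogenase, fell after LPS at both ages. Acadl, Hadh, Acaa1a, Eci2, Decr1, Etfa, Acadvl and Hadhb rose at both ages. All 30 genes passed the filter on low counts. Of the 30, 11 were called in the young (beside 40.3% of all genes tested) and 15 in the old (beside 48.4%). In the young, 8 rose, a share of 26.7% beside 21.9% of all genes tested, and 3 fell, 10% beside 18.4%. In the old, 11 rose (36.7%, beside 25.1% of all genes) and 4 fell (13.3%, beside 23.3%). The share called in either direction was thus near that of all genes. With DESeq2, 7 rose in the old, as Cpt2, Etfdh, Hadhb and Ech1 lost their calls. The median log2 fold change of the 30 was 0.089 in the young and 0.012 in the old, beside -0.010 and -0.009 over all genes. The count lower in the young was 1 without young control replicate 1 and 5 without old LPS replicate 1 or 2, and the count lower in the old was 9 without old LPS replicate 2. The 11 genes called in the young were also called in the old, which is 11 of 11 and 11 of 15. The matching share of all genes is not given here, so this overlap is not shown to be particular to the 30. The fold changes at the 2 ages, which share no library, had a Pearson correlation of 0.89 across the 30 genes, given as a description since genes are not independent. In unscaled CPM, both young LPS libraries were above both young controls for 15 of the 30 genes, beside 36.1% of all genes. They were below for 7, beside 36.1%. In the old the counts were 12 above, beside 34.3%, and 14 below, beside 41.0%. Such separation within an age was thus common and is given below as a description. Together the 30 genes held 0.274% to 0.291% of the UMIs of AE2-like cells in control libraries and 0.25% to 0.299% after LPS. In the same cells the summed level of the 10 AE2 markers was 305830 to 320330 CPM in young and 282180 to 294870 in old controls, and 112090 to 124770 and 99297 to 137450 after LPS. With the 10 most abundant genes left out of the scaling, 8 of the 30 were called higher and 4 lower in the young, and 11 and 4 in the old. Alveolar macrophage markers, whose presence in these sums can come from free RNA, summed to 11.7 to 25.4 CPM in young and 18.7 to 20.1 in old controls and to 74.4 to 74.9 and 66.5 to 73.3 after LPS. Of that list, Marco and Siglecf were at 0 in old LPS and Marco in young LPS. Platelet markers (6, of which 2 or 3 were detected, with Gp1bb, Gp9 and Tubb1 at 0) summed to 15.1 to 16.4 CPM in young and 21.5 to 23.9 in old controls and to 133 to 142 and 182 to 203 after LPS. Endothelial markers (5 to 7 of 10 detected, with Calcrl and Emcn at 0 in every group) summed to 24.7 to 26.1 CPM in young and 20.1 to 21.5 in old controls and to 64.0 to 84.7 and 84.0 to 114 after LPS. Ciliated markers (10 of 10 detected) went from 133 to 140.3 and 141 to 144 CPM to 43.8 to 45.6 and 32.6 to 47.1. Neutrophil and monocyte marker sums were lower, and B cell and smooth muscle marker sums higher, in all 4 LPS libraries than in all 4 controls. The part of these transcripts in the result was not tested.

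**Figure D1:**
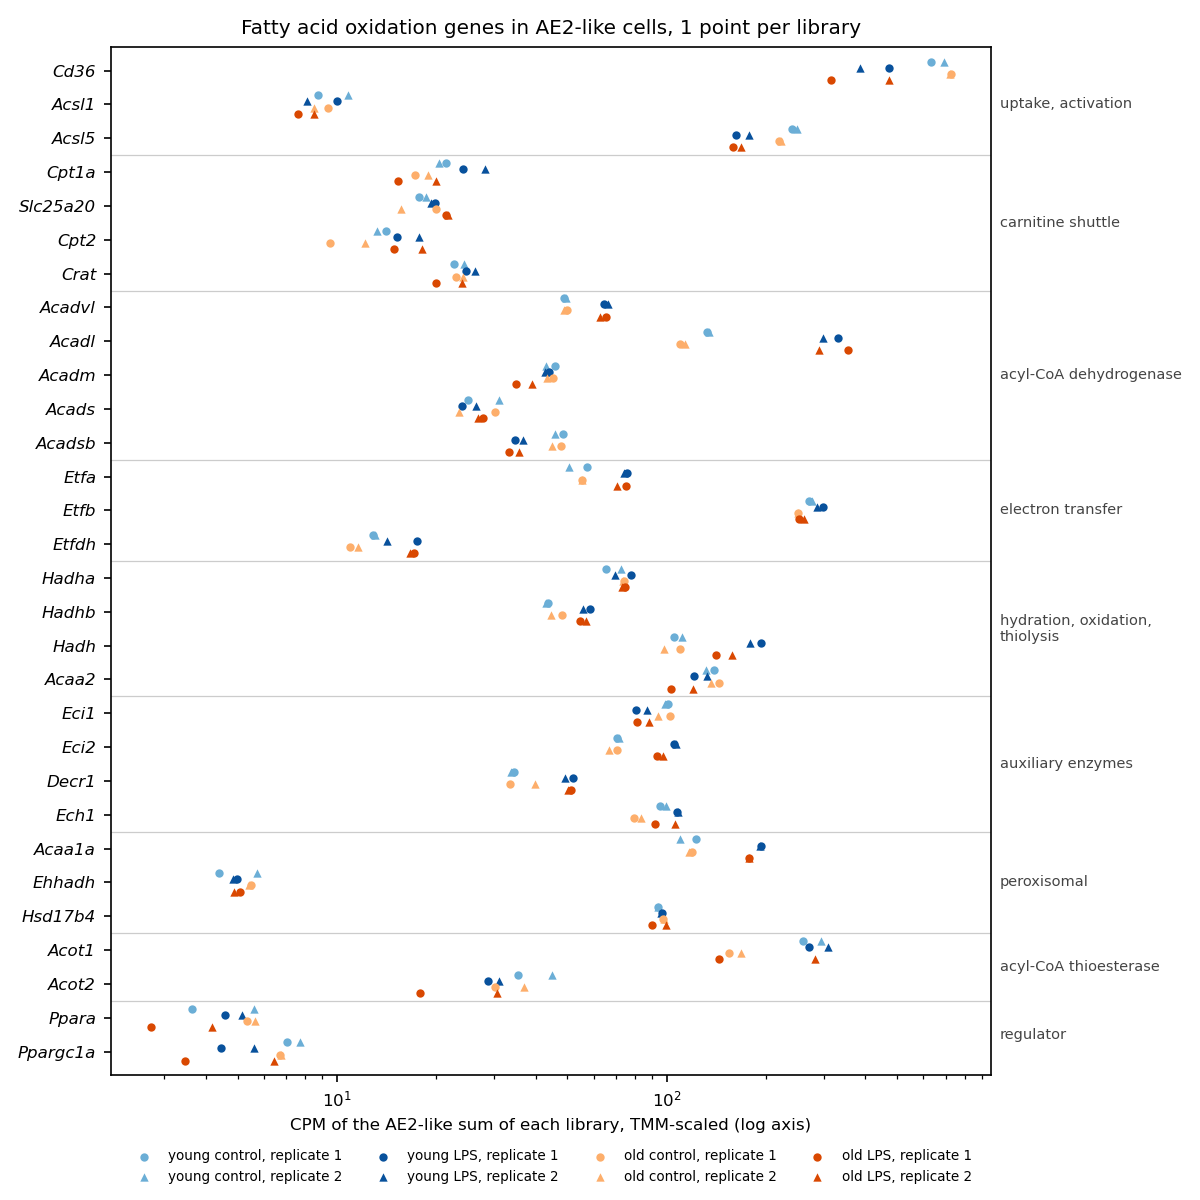
CPM of each of the 30 genes in AE2-like cells on a log axis, 1 point per library, grouped by role, with colour for the group and shape for the lane. Points of Cd36 after LPS lie to the left of its controls and points of Acadl after LPS to the right, while Etfb and Hsd17b4 stay close together.

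Among uptake and activation genes, Cd36, a membrane transporter of long-chain fatty acids, had the highest mean CPM of the 30, at 634 and 694 CPM for young controls, 473 and 385 for young LPS, 728 and 721 for old controls and 314 and 472 for old LPS. All 4 LPS libraries were below all 4 controls, and the 2 libraries of each LPS group lay further apart than those of the controls. LPS over control gave a log2 ratio of -0.63 ± 0.19 (SE, edgeR adjusted p = 0.0281) in young and -0.88 ± 0.18 (SE, edgeR adjusted p = 0.0054) in old mice. The young call was lost with the lane as a block (edgeR adjusted p = 0.0703), without young control replicate 1 (0.0576), without young control replicate 2 (0.114) and without young LPS replicate 2 (0.11). Acsl5, an acyl-CoA synthetase of mitochondria and endoplasmic reticulum, was at 240.5 and 249 CPM for young controls, 162 and 178 for young LPS, 219 and 223 for old controls and 159 and 168 for old LPS. Its LPS and control libraries did not overlap at either age. On the log2 scale, LPS over control was -0.52 ± 0.09 (SE, edgeR adjusted p = 0.000274) in the young and -0.43 ± 0.09 (SE, edgeR adjusted p = 0.000924) in the old, a call kept in all 17 alternatives at each age. Acsl1, the other synthetase of the list, stayed between 7.64 and 10.8 CPM and was not called.

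Of the 4 carnitine shuttle genes, none was called in the young and 1, Cpt2, in the old. Cpt2, the inner-membrane transferase that turns acylcarnitine back into acyl-CoA, was at 14.1 and 13.2 CPM for young controls, 15.2 and 17.8 for young LPS, 9.56 and 12.2 for old controls and 14.9 and 18.0 for old LPS. Its LPS libraries were above the controls of the same age, with the lowest values in the old controls. In young mice the log2 fold change was 0.29 ± 0.17 (SE, edgeR adjusted p = 0.205), and in old mice it was 0.59 ± 0.17 (SE, edgeR adjusted p = 0.00785). The old call was lost in 2 of 17 alternatives, with DESeq2 (adjusted p = 0.0557) and without old control replicate 1 (0.102). Cpt1a, the outer-membrane transferase and the rate-limiting entry step, was at 21.4 and 20.4 CPM for young controls, 24.1 and 28.2 for young LPS, 17.2 and 18.8 for old controls and 15.4 and 20.02 for old LPS. The young LPS libraries were the highest and old LPS replicate 1 the lowest. Fitted log2 fold changes were 0.33 ± 0.15 (SE, edgeR adjusted p = 0.0929) in the young and -0.03 ± 0.15 (SE, edgeR adjusted p = 0.902) in the old. Crat, the carnitine acetyltransferase and the most abundant of this role, was at 22.6 and 24.3 CPM for young controls, 24.5 and 26.2 for young LPS, 23.0 and 24.1 for old controls and 19.998 and 23.9 for old LPS, with overlapping ranges in the old, and was not called. Slc25a20, the carnitine-acylcarnitine carrier, had log2 fold changes of 0.10 ± 0.15 in the young and 0.29 ± 0.14 in the old and was not called.

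The 5 acyl-CoA dehydrogenases, which start each turn of the spiral and differ in the chain length they accept, did not move together: Acadl and Acadvl rose, Acadsb fell, and Acadm and Acads were not called. Acadl, the long-chain dehydrogenase, was at 132 and 135 CPM for young controls, 331 and 298 for young LPS, 109.9 and 114 for old controls and 355 and 290.4 for old LPS. Every LPS library was above every control by more than the spread within any group. For Acadl the LPS effect in log2 was 1.23 ± 0.11 (SE, edgeR adjusted p = 1.5e-07) in young and 1.53 ± 0.11 (SE, edgeR adjusted p = 1.17e-08) in old mice. Both calls held in all 17 alternatives. Acadvl, the very-long-chain enzyme, changed by 0.41 ± 0.10 (SE, edgeR adjusted p = 0.0033) in the young and 0.37 ± 0.09 (SE, edgeR adjusted p = 0.00364) in the old. Acadsb, which acts on short branched chains from isoleucine, changed by -0.40 ± 0.11 (SE, edgeR adjusted p = 0.00801) and -0.43 ± 0.10 (SE, edgeR adjusted p = 0.00284). The young call was lost in 3 of 17 alternatives, with DESeq2 (adjusted p = 0.0677), without young control replicate 1 (0.0596) and without young LPS replicate 1 (0.0751). Acadm, the medium-chain enzyme, had log2 fold changes of -0.03 ± 0.11 and -0.25 ± 0.10 (edgeR adjusted p = 0.0543 in the old). Acads, the short-chain enzyme, had -0.17 ± 0.15 and 0.03 ± 0.14.

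Electrons from these dehydrogenases pass to the flavoprotein of Etfa and Etfb and then to its oxidoreductase Etfdh. Etfa changed by 0.49 ± 0.10 (SE, edgeR adjusted p = 0.00111) in the young and 0.40 ± 0.10 (SE, edgeR adjusted p = 0.00303) in the old. Etfb, its partner subunit and the most abundant gene of the role, was at 269.9 and 276 CPM for young controls, 297 and 286 for young LPS, 249 and 249.7 for old controls and 252 and 261 for old LPS. The LPS libraries of each age were above its controls by a small margin and Etfb was not called. Etfdh was at 12.9 and 13.1 CPM for young controls, 17.5 and 14.2 for young LPS, 11.0 and 11.5 for old controls and 17.2 and 16.6 for old LPS. The log2 fold change after LPS was 0.27 ± 0.16 (SE, edgeR adjusted p = 0.19) in the young and 0.58 ± 0.15 (SE, edgeR adjusted p = 0.00471) in the old, so Etfdh was called at the older age. That call was lost in 1 of 17 alternatives, with DESeq2 (adjusted p = 0.0515). The difference between the ages was 0.31 ± 0.22 (SE, edgeR adjusted p = 0.686).

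In the later steps of the spiral, Hadh, the short-chain 3-hydroxyacyl-CoA dehydrogenase, rose most and was at 105 and 111 CPM for young controls, 193 and 179 for young LPS, 109.9 and 97.9 for old controls and 141 and 158 for old LPS. All 4 LPS libraries exceeded all 4 controls, and young LPS was higher than old LPS. LPS over control gave a log2 ratio of 0.78 ± 0.10 (SE, edgeR adjusted p = 1.33e-05) in young and 0.52 ± 0.10 (SE, edgeR adjusted p = 0.000412) in old mice; old against young after LPS was -0.32 ± 0.10 (SE, edgeR adjusted p = 0.084). Hadhb, the thiolase subunit of the trifunctional protein, changed by 0.39 ± 0.10 (SE, edgeR adjusted p = 0.00589) in the young and 0.27 ± 0.10 (SE, edgeR adjusted p = 0.0325) in the old. Hadha, the subunit that hydrates and oxidises long chains, had 0.08 ± 0.10 and -0.01 ± 0.10 and was not called. The Hadhb call was lost in 5 of 17 alternatives, with DESeq2 (adjusted p = 0.183), with the compared groups alone (0.0766), without old control replicate 1 (0.0606), without old control replicate 2 (0.222) and without old LPS replicate 2 (0.0596) in the old. In the young it was lost in 3 of 17 alternatives, with DESeq2 (adjusted p = 0.0583), without young LPS replicate 1 (0.0516) and without young control replicate 2 (0.062). Acaa2, a mitochondrial thiolase, fell in the old by 0.33 ± 0.10 (log2; edgeR adjusted p = 0.0117) and was at -0.10 ± 0.10 in the young. The old call was lost in 3 of 17 alternatives, with DESeq2 (adjusted p = 0.0573), without old control replicate 1 (0.0988) and without old LPS replicate 1 (0.0628).

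Double bonds are moved or reduced by the auxiliary enzymes before the spiral can go on. Eci2, an enoyl-CoA isomerase found in mitochondria and peroxisomes, was at 70.5 and 71.4 CPM for young controls, 105 and 107 for young LPS, 70.8 and 66.6 for old controls and 93.4 and 97.2 for old LPS. On the log2 scale, LPS over control was 0.58 ± 0.09 (SE, edgeR adjusted p = 0.000119) in the young and 0.47 ± 0.09 (SE, edgeR adjusted p = 0.000477) in the old. Decr1, the mitochondrial dienoyl-CoA reductase, was at 34.5 and 33.8 CPM for young controls, 52.1 and 49.2 for young LPS, 33.5 and 39.8 for old controls and 51.4 and 50.1 for old LPS. In young mice the log2 fold change was 0.57 ± 0.11 (SE, edgeR adjusted p = 0.000851), and in old mice it was 0.46 ± 0.11 (SE, edgeR adjusted p = 0.00207). For both genes every LPS library was above every control, and the calls held in all 17 alternatives. Ech1, a dienoyl-CoA isomerase and the most abundant gene of this role on average, was at 95.6 and 99.4 CPM for young controls, 108 and 108 for young LPS, 79.3 and 83.7 for old controls and 92.4 and 106 for old LPS. Fitted log2 fold changes were 0.14 ± 0.10 (SE, edgeR adjusted p = 0.263) in the young and 0.28 ± 0.10 (SE, edgeR adjusted p = 0.0232) in the old. The old call was lost in 5 of 17 alternatives, with DESeq2 (adjusted p = 0.109), with the compared groups alone (0.0695), without old control replicate 1 (0.146), without old control replicate 2 (0.0691) and without old LPS replicate 2 (0.111), and the value was 0.18 without old LPS replicate 2. Eci1, the mitochondrial counterpart of Eci2, had the opposite sign without a call, -0.25 ± 0.10 (SE, edgeR adjusted p = 0.051) and -0.21 ± 0.09 (SE, edgeR adjusted p = 0.0767).

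Of the peroxisomal genes, Acaa1a, a peroxisomal thiolase, was at 123 and 109.6 CPM for young controls, 193 and 192 for young LPS, 119 and 117 for old controls and 177 and 177 for old LPS. For Acaa1a the LPS effect in log2 was 0.73 ± 0.09 (SE, edgeR adjusted p = 1.16e-05) in young and 0.59 ± 0.09 (SE, edgeR adjusted p = 6.93e-05) in old mice, and the LPS and control libraries did not overlap. Its near-identical paralog Acaa1b can share reads with it, and an exon overlaps Myd88 on the opposite strand, so its level is uncertain to that extent. Exons of Acsl1, Acsl5, Acadvl, Crat, Eci2, Etfdh and Hadha also overlap exons of other genes on the opposite strand. Those of Etfb overlap other genes on the same strand. The same limit holds for these levels. Hsd17b4, the multifunctional enzyme of branched and very long chains, stayed within 90.2 to 99.6 CPM over the 8 libraries. Ehhadh, the bifunctional enzyme, was at 4.38 to 5.74 CPM. Neither was called.

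The thioesterases, which release free fatty acid from acyl-CoA, varied between libraries of 1 group. Acot1, the cytosolic enzyme, was at 258 and 293 CPM for young controls, 270.2 and 308 for young LPS, 154 and 168 for old controls and 144 and 282 for old LPS. Old LPS replicate 2 was at the level of the young libraries and old LPS replicate 1 at that of the old controls. The log2 fold change after LPS was 0.07 ± 0.33 (SE, edgeR adjusted p = 0.897) in the young and 0.41 ± 0.34 (SE, edgeR adjusted p = 0.38) in the old. Acot2, its mitochondrial paralog, lies 15617 bases upstream of Acot1 and is similar in sequence, so reads may be split between them; its log2 fold changes were -0.45 ± 0.26 and -0.47 ± 0.25, without a call.

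The regulators were low. Ppara, the receptor PPAR-alpha, was at 3.65 and 5.61 CPM for young controls, 4.59 and 5.16 for young LPS, 5.33 and 5.65 for old controls and 2.73 and 4.18 for old LPS. Its LPS libraries lay below the controls in the old and overlapped them in the young. LPS over control gave a log2 ratio of 0.02 ± 0.29 (SE, edgeR adjusted p = 0.973) in young and -0.66 ± 0.27 (SE, edgeR adjusted p = 0.0537) in old mice. Ppargc1a, encoding PGC-1alpha, was at 7.05 and 7.74 CPM for young controls, 4.46 and 5.60 for young LPS, 6.74 and 6.78 for old controls and 3.45 and 6.46 for old LPS. The LPS libraries lay below the controls at both ages, as they did for 36.1% of all genes in the young and 41.0% in the old. On the log2 scale, LPS over control was -0.56 ± 0.28 (SE, edgeR adjusted p = 0.128) in the young and -0.43 ± 0.26 (SE, edgeR adjusted p = 0.19) in the old; neither regulator was called.

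**Figure D2:**
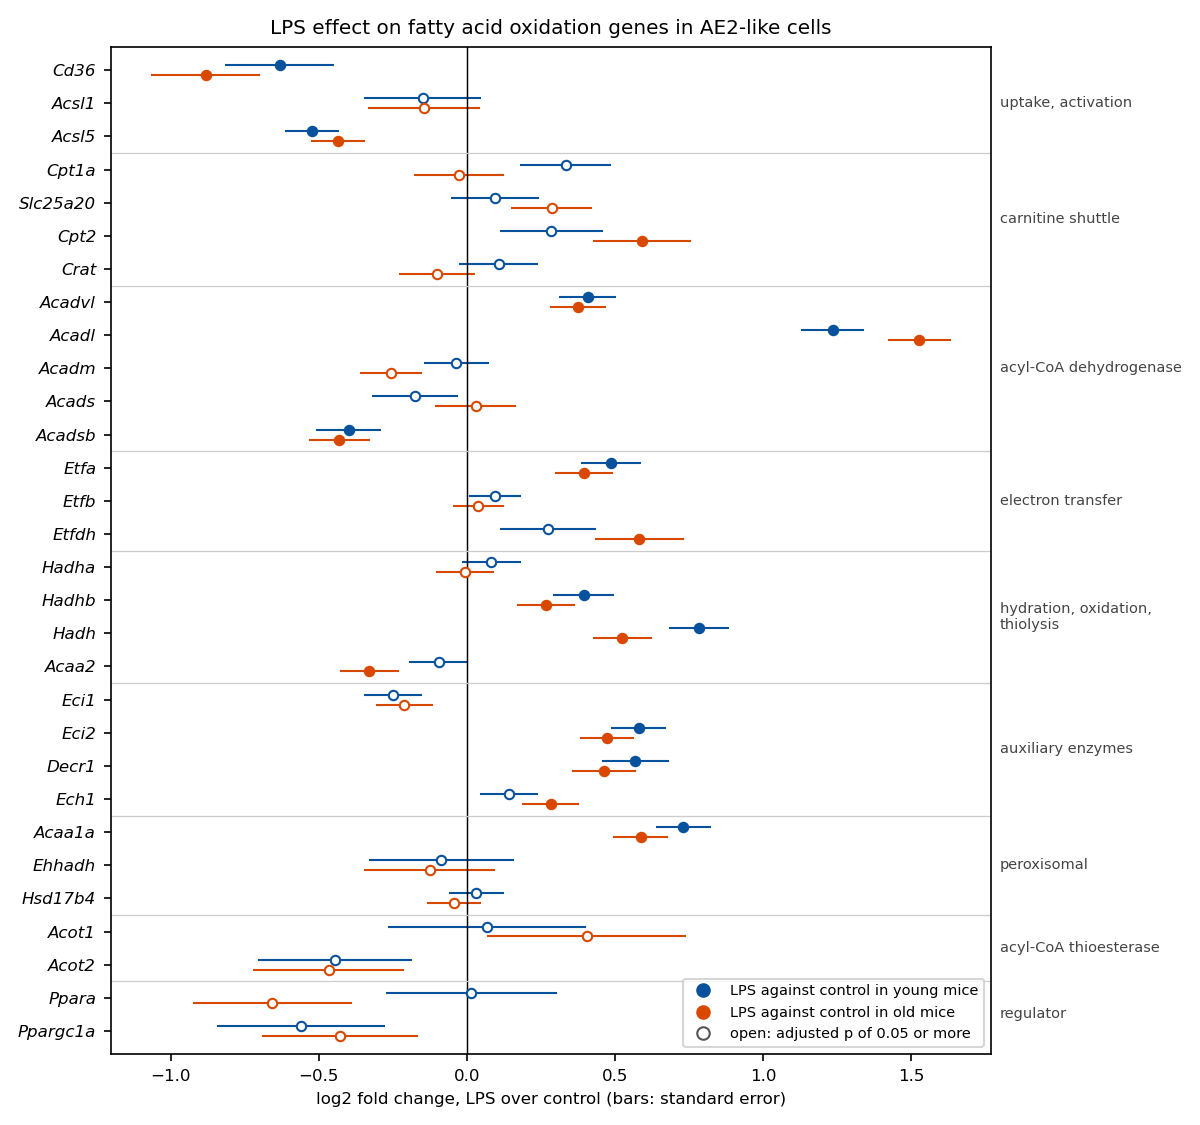
Log2 fold change after LPS with its standard error for the 30 genes in AE2-like cells, young in blue and old in orange, filled where called. The 11 genes called at both ages have the same sign at both, from Acadl at 1.23 and 1.53 to Cd36 at -0.63 and -0.88.

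Age alone moved none of the 30 genes past the threshold in control AE2-like cells by edgeR (0 called, beside 0.615% of all genes, of which 0.36% were lower, with 2 members at an unadjusted p under 0.05, and DESeq2 called 0). Without old LPS replicate 1 or 2, 1 was called lower. The largest difference of the 30 was that of Acot1, lower in both old controls than in both young controls, at -0.78 ± 0.34 (SE, edgeR adjusted p = 0.556). After LPS, 1 gene was called lower in the old, Cpt1a (beside 2.42% of all genes lower), and none higher (beside 1.64%, with 4.06% in either direction). Its log2 difference was -0.56 ± 0.14 (SE, edgeR adjusted p = 0.0337), and both old LPS libraries were below both young ones. That call ended in 9 of 17 alternatives, among them DESeq2 (adjusted p = 0.238) and leaving out any library except old LPS replicate 2; the log2 difference ranged from -0.77 to -0.39. Without old LPS replicate 2, 6 genes were called lower. The LPS effect itself was not shown to differ with age for any of the 30: edgeR called 0 interactions (beside 0.686% of all genes), with 0 at an unadjusted p under 0.05, and DESeq2 called 0. Without old LPS replicate 1 the interaction gave 1 gene higher, and without old LPS replicate 2 it gave 1 higher and 1 lower. Club cell markers (7 of 8 detected, Upk3a at 0) summed to 1755 to 2016 CPM in young and 4175 to 5015 in old control AE2-like cells. After LPS they summed to 673 to 888 CPM in the young and 1465 to 2262 in the old, so they moved with age and, at each age, with LPS. Their part in these comparisons was not tested.

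AE2-like cells of the LPS libraries made up 99.4% to 100% of 4 clusters, led by Lcn2, Cxcl1, Ly6i and Gbp2. Clusters were made from the expression of these same cells, so the levels below are a description. Acadl was at 128 CPM in the largest control cluster, led by Scd1, and at 283, 357, 302 and 401 in the Lcn2, Cxcl1, Ly6i and Gbp2 clusters. Cd36 was at 713 CPM in the Scd1 cluster and at 436, 288, 379 and 267 in those 4. A mixed cluster led by Itih4, with 72.6% of its 656 cells from LPS libraries, had Acadl at 186, Cd36 at 572 and Acot1 at 393 CPM. These are values pooled over libraries, whose shares differ between clusters. Over the 4 LPS libraries Cd36 ranged from 355 to 600.0 CPM in the Lcn2, 263 to 489 in the Cxcl1, 273 to 475 in the Ly6i and 236 to 287 in the Gbp2 cluster. The Gbp2 range lay below that of the Lcn2 cluster, and all other pairs of ranges overlapped. Acadl ranged from 261 to 313, 296 to 380.3, 295 to 309 and 383 to 444 CPM in the same order, with the Gbp2 cluster above the others in every library. Acot1 was at 118 (105 to 199.7 over libraries) and 118 (79.7 to 133) CPM in the Cxcl1 and Gbp2 clusters. It was at 253 (165 to 334) and 233 (117 to 266) in the Lcn2 and Ly6i clusters and 266 (168 to 896) in the Scd1 cluster. The Scd1 range covers 6 libraries and so includes LPS libraries, which gave 7.07% of the cells of that cluster. Its upper end is thus not shown to be a control level. The Gbp2 range of Acot1 lay below those of the Lcn2 and Scd1 clusters, and the other pairs of these ranges overlapped. Hadh was at 187 (163 to 226) and 181 (154 to 198) CPM in the Lcn2 and Ly6i clusters and 135 (125 to 220.4) and 150.1 (96.3 to 165) in the Cxcl1 and Gbp2 clusters, with overlapping ranges. The Cxcl1 cluster held 52.7% and 29.1% of AE2-like cells in the old LPS libraries and 3.37% and 3.05% in the young ones; the Gbp2 cluster held 4.31% and 7.97% and 31.6% and 20.7%.

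A further list of 103 genes of fatty acid handling, of which 81 passed the filter, was read in the same fit; like the 30, it was drawn up with earlier results of these data known. In AE2-like cells, 16 of the 81 rose and 18 fell in the young, beside 21.9% and 18.4% of all genes, and 13 rose and 24 fell in the old, beside 25.1% and 23.3%. Of 9 PPAR target genes tested, 6 were higher and 0 lower in the young and 5 higher and 0 lower in the old, to be read against the same shares of all genes. As medians, their log2 fold changes were 0.660 and 1.128. The count covers only the genes filed under this role. Cd36, counted among the 30, and Lpl, filed under another role, were called lower at both ages and are not in it. Of 21 other mitochondrial oxidation genes, 1 was higher and 7 lower in the young (beside 21.9% and 18.4% of all genes) and 1 higher and 10 lower in the old (beside 25.1% and 23.3%). No test compares these groups with other genes. The young count of PPAR targets was 3 with DESeq2 and 3 without young control replicate 1, young LPS replicate 1 or young LPS replicate 2.

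Vnn1, the pantetheinase that releases cysteamine, was at 20.4 and 22.2 CPM for young controls, 105 and 90.8 for young LPS, 21.6 and 19.95 for old controls and 58.7 and 65.1 for old LPS. Its 4 LPS libraries stood above all controls, with the young above the old. In young mice the log2 fold change was 2.19 ± 0.12 (SE, edgeR adjusted p = 5.27e-10), and in old mice it was 1.58 ± 0.12 (SE, edgeR adjusted p = 2.5e-08). Angptl4, an inhibitor of lipoprotein lipase, was at 10.2 and 16.8 CPM for young controls, 33.7 and 28.0 for young LPS, 1.72 and 4.77 for old controls and 53.5 and 38.2 for old LPS. Fitted log2 fold changes were 1.12 ± 0.35 (SE, edgeR adjusted p = 0.044) in the young and 3.75 ± 0.40 (SE, edgeR adjusted p = 0.000468) in the old, and the difference between the ages was 2.63 ± 0.57 (SE, edgeR adjusted p = 0.175). The young call was lost in 7 of 17 alternatives, with DESeq2 (adjusted p = 0.0677), with the lane as a block (0.0835), without the highest doublet scores (0.0534), without young control replicate 1 (0.128), without young LPS replicate 1 (0.162), without young control replicate 2 (0.0506) and without young LPS replicate 2 (0.086), with values from 0.87 to 1.59. Pdk4, the kinase that turns off pyruvate dehydrogenase, had 14 UMIs in the young controls and 0 in the old controls, against 47 in young LPS and 42 in old LPS. Set against a floor of 3 counts over the old controls, the pooled level in old LPS was 8.18-fold higher. That ratio takes the 42 UMIs as exact and leaves out the spread between libraries, so it is no strict lower bound. With 0 UMIs in the old controls, Pdk4 passed the filter through other groups. In the young its log2 fold change was 1.24 ± 0.47 (SE, edgeR adjusted p = 0.0461), a call lost in 9 of 17 alternatives, with DESeq2 (adjusted p = 0.184), with the lane as a block (0.0503), without the highest doublet scores (0.0567), at a clustering resolution of 0.5 (0.0537), without young control replicate 1 (0.239), without young LPS replicate 1 (0.193), without old control replicate 1 (0.0524), without young LPS replicate 2 (0.0833) and without old control replicate 2 (0.0536). Without young control replicate 1 the value was 0.81. Without young control replicate 2 the value was 2.50.

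Lpl, the lipoprotein lipase that Angptl4 inhibits, was at 81.0 and 61.7 CPM for young controls, 12.6 and 17.1 for young LPS, 64.3 and 64.5 for old controls and 6.27 and 16.9 for old LPS. All LPS libraries lay below all controls. For Lpl the LPS effect in log2 was -2.23 ± 0.45 (SE, edgeR adjusted p = 0.0179) in young and -2.45 ± 0.44 (SE, edgeR adjusted p = 0.0103) in old mice; the young call was lost without young control replicate 1 (0.0623), young LPS replicate 1 (0.0993) or young LPS replicate 2 (0.0706). Mgll, the monoacylglycerol lipase, was at 47.2 and 53.9 CPM for young controls, 9.71 and 14.6 for young LPS, 49.4 and 48.1 for old controls and 3.64 and 16.4 for old LPS. The log2 fold change after LPS was -2.05 ± 0.64 (SE, edgeR adjusted p = 0.0662) in the young and -2.24 ± 0.61 (SE, edgeR adjusted p = 0.04) in the old. The old call was lost in 8 of 17 alternatives, without the filter (edgeR adjusted p = 0.0751), with the compared groups alone (0.0678), without young control replicate 1 (0.0716), without young LPS replicate 1 (0.079), without old control replicate 1 (0.125), without young control replicate 2 (0.0708), without young LPS replicate 2 (0.0786) and without old control replicate 2 (0.129). Its value was -3.73 without old LPS replicate 2 and -1.57 without old LPS replicate 1, still called. Acacb, the acetyl-CoA carboxylase whose malonyl-CoA inhibits carnitine palmitoyltransferase, was at 7.05 and 5.47 CPM for young controls, 2.76 and 3.95 for young LPS, 7.37 and 6.02 for old controls and 1.18 and 2.92 for old LPS. It fell in the old by 1.66 ± 0.33 on the log2 scale (edgeR adjusted p = 0.000759) and had -0.85 ± 0.34 (SE, edgeR adjusted p = 0.0621) in the young. Cat, the peroxisomal catalase, had group means of 369 ± 31.9 CPM (SD, n = 2) for young controls, 198 ± 22.6 for young LPS, 450.4 ± 30.0 for old controls and 186 ± 61.3 for old LPS. LPS over control gave a log2 ratio of -0.90 ± 0.22 (SE, edgeR adjusted p = 0.0177) in young and -1.27 ± 0.22 (SE, edgeR adjusted p = 0.0033) in old mice; the young call was lost without young control replicate 1 (0.0696) and without young LPS replicate 1 (0.0909). Acad12, an acyl-CoA dehydrogenase family member, was at 4.62 and 4.41 CPM for young controls, 2.23 and 2.19 for young LPS, 4.07 and 5.15 for old controls and 2.36 and 2.99 for old LPS. It changed by -1.02 ± 0.31 (SE, edgeR adjusted p = 0.0151) in the young and -0.78 ± 0.27 (SE, edgeR adjusted p = 0.0241) in the old, a young call lost in 5 of 17 alternatives, with DESeq2 (adjusted p = 0.0975), without young control replicate 1 (0.058), without young LPS replicate 1 (0.0613), without young control replicate 2 (0.0818) and without young LPS replicate 2 (0.0707). The old call was lost in 3 of 17 alternatives, with DESeq2 (adjusted p = 0.168), without old LPS replicate 1 (0.114) and without old control replicate 2 (0.221). Its old value was -0.59 without old control replicate 2 and -0.63 without old LPS replicate 1.

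The other receptors of the family were low. Pparg was at 1.46 and 1.07 CPM for young controls, 1.71 and 1.54 for young LPS, 4.07 and 3.89 for old controls and 2.27 and 2.76 for old LPS. Both old controls were above both young controls, but the difference missed the threshold, at 1.70 ± 0.38 (SE, edgeR adjusted p = 0.0586). Ppard stayed between 6.04 and 8.12 CPM. Of the list, 1 gene differed with age in controls, Plin2, which coats lipid droplets, at 179.9 and 193 CPM for young controls, 297 and 293 for young LPS, 102 and 126 for old controls and 235 and 265 for old LPS. Its old against young difference in controls was -0.71 ± 0.11 (SE, edgeR adjusted p = 0.00597), lost without young control replicate 1 (0.0571), old control replicate 1 (-0.56, adjusted p = 0.185) or young control replicate 2 (0.286). After LPS 5 of 81 were lower in the old and 0 higher, beside 2.42% and 1.64% of all genes. Vnn1 was at -0.66 ± 0.10 (SE, edgeR adjusted p = 0.00147), which held in all 17 alternatives. Fabp4, a fatty acid binding protein at under 3 CPM in every library, was at -1.66 ± 0.44, Echs1, the mitochondrial short-chain hydratase, at -0.45 ± 0.10, Abcd3, a peroxisomal fatty acid transporter, at -0.44 ± 0.10 and Pnpla2, the lipase of lipid droplets, at -0.41 ± 0.10. Each of these 4 calls was lost with DESeq2, with the compared groups alone and without young LPS replicate 1, young LPS replicate 2 or old LPS replicate 1. Plin2 and these 5 were singled out after their values were seen.

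**Figure D3:**
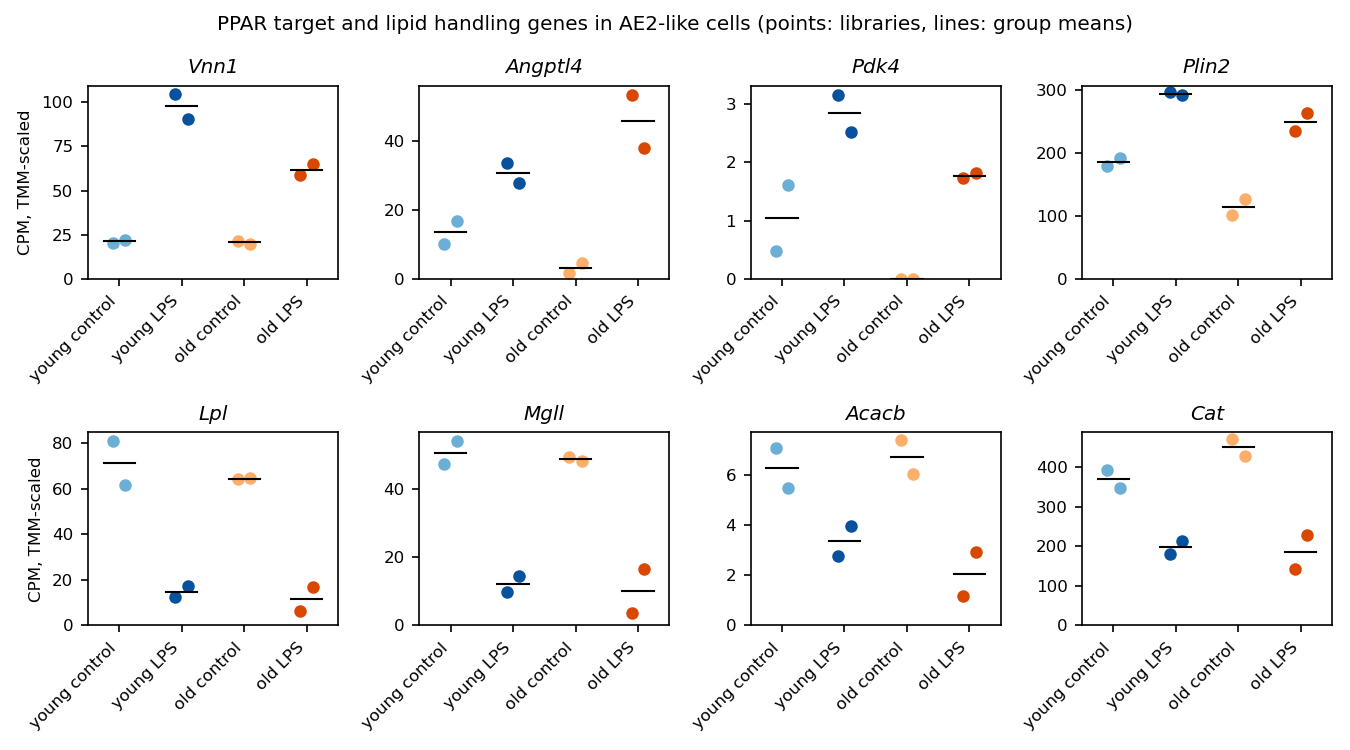
CPM of 8 genes of the wider list in AE2-like cells, 1 point per library and a line at the group mean, each axis starting at 0. Vnn1, Angptl4 and Plin2 are higher and Lpl, Mgll, Acacb and Cat lower in every LPS library than in the controls of the same age, and Pdk4 is at 0 in both old controls.

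In ciliated-like cells, the airway cells that beat mucus upward, 25 of the 30 genes passed the filter. Of these, 4 were called in the young (beside 8.56% of all genes) and 3 in the old (beside 9.23%). In the young, Acadl and Eci2 rose (2 of 25, beside 5.29% of all genes) and Acot1 and Ech1 fell (2 of 25, beside 3.28%). In the old none rose (0 of 25 by edgeR and 0 by DESeq2, beside 5.7% of all genes, while 11 of 25 were under an unadjusted p of 0.05 in either direction), and Acot1, Acadm and Acaa2 fell (3 of 25, beside 3.53%). The medians over the 25 were -0.044 and -0.137, beside 0.003 and -0.010 over all genes. Acot1 was at 601 and 705 CPM for young controls, 263 and 205 for young LPS, 559.6 and 659.7 for old controls and 222 and 371 for old LPS. Every LPS library was below every control. On the log2 scale, LPS over control was -1.46 ± 0.23 (SE, edgeR adjusted p = 0.000904) in the young and -1.06 ± 0.21 (SE, edgeR adjusted p = 0.00519) in the old, and both calls held in all 17 alternatives, with an old value of -0.69 without old LPS replicate 1. Acadl was at 206 and 215 CPM for young controls, 328 and 342 for young LPS, 169 and 189 for old controls and 206 and 222 for old LPS, highest in young LPS. In young mice the log2 fold change was 0.67 ± 0.16 (SE, edgeR adjusted p = 0.00467), and in old mice it was 0.27 ± 0.15 (SE, edgeR adjusted p = 0.331); old against young after LPS was -0.65 ± 0.14 (SE, edgeR adjusted p = 0.0116), 1 gene lower beside 0.847% of all genes and none higher beside 0.278%, with 1.13% in either direction. That age call was lost in 4 of 17 alternatives, with DESeq2 (adjusted p = 0.572), without young LPS replicate 1 (0.152), without old LPS replicate 1 (0.111) and without young LPS replicate 2 (0.115). The young LPS call was lost in 2 of 17 alternatives, with DESeq2 (adjusted p = 0.122) and without young control replicate 1 (0.0836).

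Eci2 in ciliated-like cells rose by 0.86 ± 0.28 (SE, edgeR adjusted p = 0.0483) in the young. It was lost in 7 of 17 alternatives, with DESeq2 (adjusted p = 0.327), with the lane as a block (0.0573), with the compared groups alone (0.0578), without the highest doublet scores (0.0601), without young LPS replicate 1 (0.0529), without young control replicate 2 (0.242) and without young LPS replicate 2 (0.276), and the lane block left 1 gene higher. Without young control replicate 1 the value was 1.36. Ech1 fell in the young, at -0.65 ± 0.18 (SE, edgeR adjusted p = 0.0152), a call lost in 4 of 17 alternatives, with DESeq2 (adjusted p = 0.233), without young control replicate 1 (0.25), without young LPS replicate 1 (0.0576) and without young LPS replicate 2 (0.121). Acadm fell in the old, at -0.76 ± 0.20 (SE, edgeR adjusted p = 0.0113), and had -0.63 ± 0.24 (SE, edgeR adjusted p = 0.11) in the young. Its old call was lost in 3 of 17 alternatives, with DESeq2 (adjusted p = 0.356), without old control replicate 1 (0.37) and without old LPS replicate 1 (0.161). Acaa2 fell in the old, at -0.50 ± 0.16 (SE, edgeR adjusted p = 0.0436). That call was lost in 8 of 17 alternatives, with DESeq2 (adjusted p = 0.501), without the filter (0.0548), with the compared groups alone (0.064), with the 10% mitochondrial limit (0.0593), without the highest doublet scores (0.079), without old control replicate 1 (0.0994), without old LPS replicate 1 (0.624) and without old control replicate 2 (0.287), and the value was -0.23 without old LPS replicate 1. Between old and young controls 0 of 25 were called by edgeR (beside 0.367% of all genes), 1 was under an unadjusted p of 0.05 and DESeq2 called 0. The interaction of LPS and age gave 0 calls by edgeR (beside 0.24%), 1 under an unadjusted p of 0.05 and 0 by DESeq2. Without old LPS replicate 2, 5 genes were called lower in the old, and without old LPS replicate 1, 1 gene was called higher in old than in young after LPS. Club cell markers in ciliated-like sums were at 4389 to 10833 CPM in young and 5974 to 7150.2 in old controls and at 2719 to 11153 and 13404 to 17776 after LPS, so they were higher after LPS in the old without overlap. The ciliated marker sum was 18508 to 19691 and 19669 to 19828 CPM in controls and 15671 to 15921 and 15664 to 16196 after LPS. Their part in these results was not tested.

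The LPS effects of AE2-like and ciliated-like cells were compared within libraries, with the library as a block and 12238 genes in the fit, a test added after the data were seen. With 16 sums and 4 residual degrees of freedom, its smallest p-values rest mainly on the variance shared over all genes, not on the runs alone. In the young 3 genes had a higher effect in AE2-like cells (3 of 30, beside 2.57% of all genes) and 0 a lower one (beside 3.33%, with 5.91% in either direction), although 1 was lower without young control replicate 2. In the old 4 were higher (beside 4.12%) and 2 lower (beside 5.83%, with 9.94% in either direction). Acot1 differed at both ages, by 1.43 ± 0.18 (SE, edgeR adjusted p = 1.46e-12) in the young and 1.28 ± 0.17 (SE, edgeR adjusted p = 4.98e-12) in the old, and both calls held in all 15 alternatives. Hadh differed by 1.10 ± 0.19 (SE, edgeR adjusted p = 9.73e-07) and 0.58 ± 0.18 (SE, edgeR adjusted p = 0.0151): it was -0.41 ± 0.17 and -0.19 ± 0.15 in ciliated-like cells. The old difference of Hadh was lost with DESeq2 and without old control replicate 1, old LPS replicate 1 or old control replicate 2. Its young difference held in all 15. Acadl differed by 1.16 ± 0.19 (SE, edgeR adjusted p = 1.4e-07) in the old, held in all 15, and by 0.47 ± 0.20 (SE, edgeR adjusted p = 0.158) in the young. Decr1 differed by 1.25 ± 0.31 (SE, edgeR adjusted p = 0.0016) in the old. That call was lost with DESeq2 and without old control replicate 1 or old LPS replicate 1. Ech1 differed by 0.69 ± 0.21 (SE, edgeR adjusted p = 0.025) in the young. This was lost with DESeq2 and without young control replicate 1, young LPS replicate 1 or young LPS replicate 2.

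Cd36 and Acsl5 had a more negative effect in old AE2-like cells, by -1.16 ± 0.30 (SE, edgeR adjusted p = 0.00213) and -0.72 ± 0.23 (SE, edgeR adjusted p = 0.0203). With DESeq2, and without old control replicate 1 or old LPS replicate 1, neither was called. Cd36 was at -0.74 (edgeR adjusted p = 0.188) without the highest doublet scores, and Acsl5 was lost without any of the 4 old libraries. Free RNA bears on Cd36: in ciliated-like cells it was at 3.01% to 11.9% of its AE2-like level in the same library, where Sftpc, which ciliated cells should lack, was at 1.97% to 7.97%. The Cd36 share was above that of Sftpc in 7 of 8 libraries and below it in young LPS replicate 1, so part of the Cd36 UMIs of ciliated-like cells can be free RNA, and its part in the difference was not tested. Acsl5 was at 28.2% to 56.7% of the AE2-like level, well above Sftpc.

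**Figure D4:**
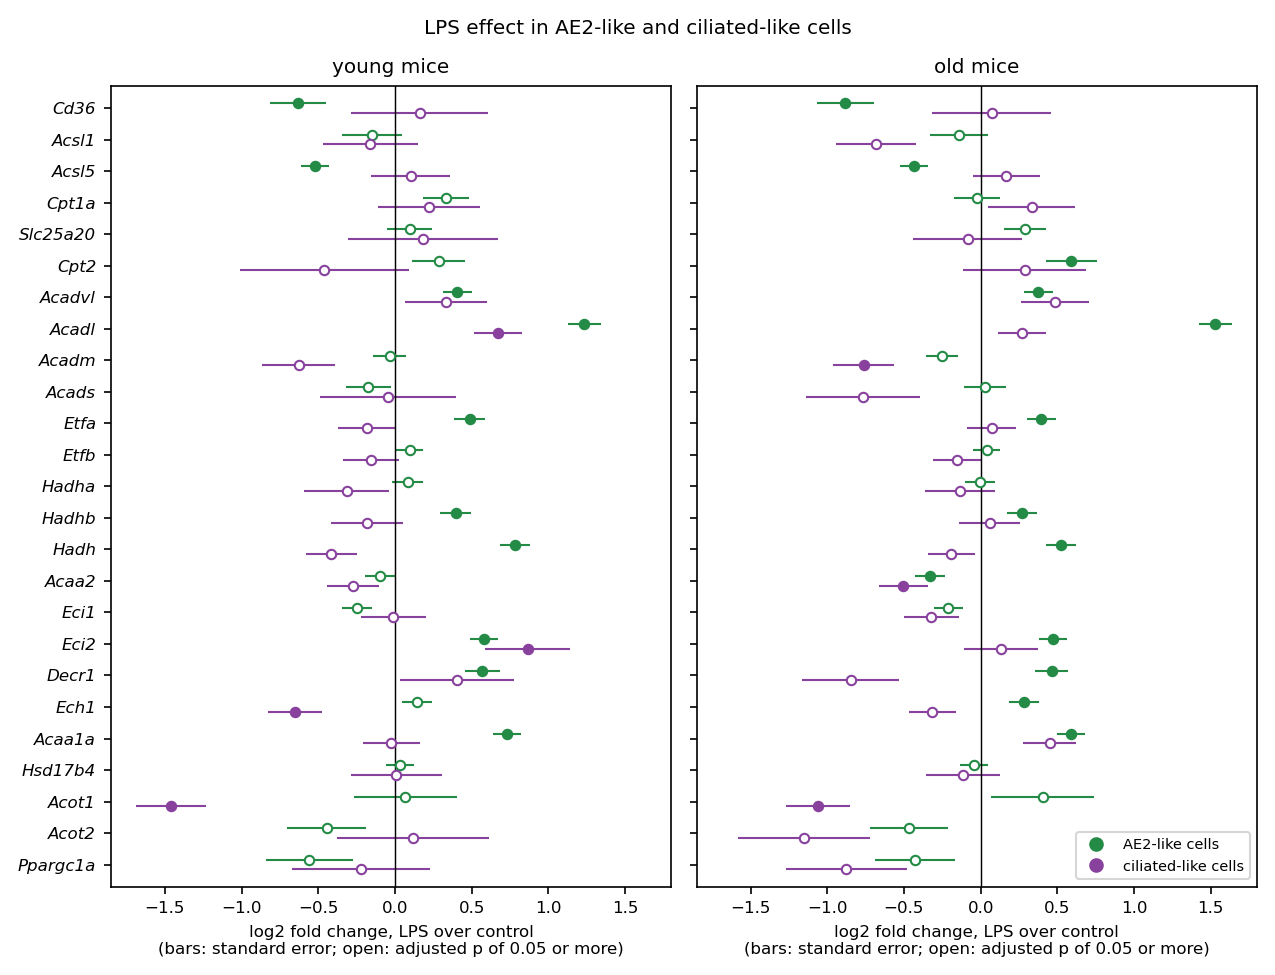
Log2 fold change after LPS with its standard error in AE2-like (green) and ciliated-like (purple) cells for the 25 genes tested in both, young left and old right, filled where called. Acot1 lies near -1.46 in young ciliated-like cells and near 0.07 in young AE2-like cells.

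Levels in the 3 classes of control lungs are described by unscaled CPM over the 4 control libraries with no test, since clustering used the same genes. Hadh was at 355 ± 32.3 CPM (SD, n = 4) in ciliated-like, 107 ± 6.5 in AE2-like and 67.6 ± 31.8 in alveolar macrophage-like cells. Acot1 followed the same order, at 650.0 ± 58.2, 219.5 ± 65.6 and 86.5 ± 15.3 CPM, and no control ranges overlapped. Cd36 was ordered differently, at 701 ± 55.8 CPM in AE2-like, 202 ± 42.2 in alveolar macrophage-like and 37.9 ± 19.3 in ciliated-like cells. Cpt1a was highest in alveolar macrophage-like cells, at 168 ± 56.9 CPM, then 43.6 ± 12.0 in ciliated-like and 19.6 ± 1.49 in AE2-like cells. Ppargc1a was at 32.1 ± 14.1 CPM in ciliated-like and 7.14 ± 0.431 in AE2-like cells. In alveolar macrophage-like cells, Ppara and Ppargc1a had 0 UMIs in all 8 libraries; in the old controls, the deepest group, 0 counts allow up to 2.04 CPM (3 counts of the total, counting error only). The 30 genes together held 0.34% to 0.366% of the UMIs of ciliated-like and 0.255% to 0.277% of those of alveolar macrophage-like cells in controls, and 0.249% to 0.309% and 0.226% to 0.295% after LPS.

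**Figure D5:**
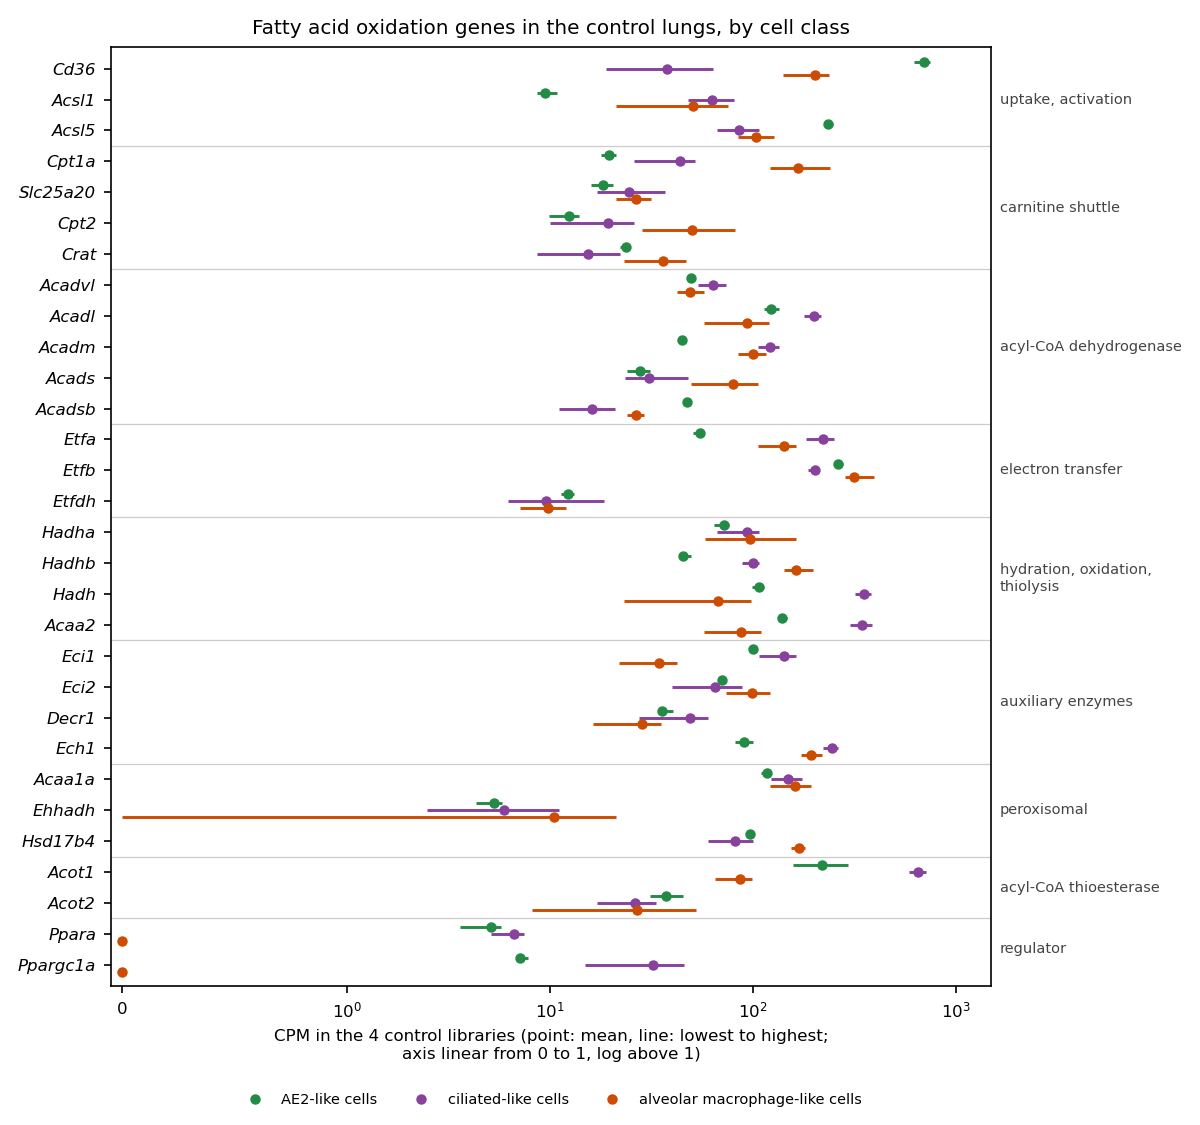
CPM of the 30 genes in the 4 control libraries for AE2-like, ciliated-like and alveolar macrophage-like cells, with a point at the mean and a line from the lowest to the highest library, on an axis that is linear to 1 and logarithmic above. In unscaled CPM, ciliated-like cells lead for Hadh, Acaa2 and Acot1, AE2-like cells for Cd36 and Acsl5, and alveolar macrophage-like cells for Cpt1a and Hadhb. The most abundant genes lower unscaled CPM of the others most in AE2-like cells, and these orders were not recomputed without them.

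In alveolar macrophage-like cells, the phagocytes of the airspace, 17 genes passed the filter in control libraries, and 0 were called between old and young by edgeR (beside 0.519% of all genes, with 2 members under an unadjusted p of 0.05, and DESeq2 called 0). After LPS their sums had 5, 11, 13 and 37 cells, so values are given with counting intervals and no test. Acsl1 had 19 UMIs, 64.5 CPM (exact Poisson 95% interval 38.8 to 101) in young controls and 28 UMIs, 196 CPM (exact Poisson 95% interval 130.2 to 283) in young LPS. In the old it had 79 UMIs, 53.7 CPM (exact Poisson 95% interval 42.5 to 67.0) in controls and 66 UMIs, 186 CPM (exact Poisson 95% interval 144 to 237) after LPS. The 4 LPS libraries, at 174 to 242 CPM, lay above the 4 controls, at 21.2 to 75.4. Acadl was at 57.3 to 120.3 CPM in controls and 163 to 236 after LPS, and Eci2 at 73.7 to 121 and 170.4 to 315. Cpt1a went the other way, from 122 to 241 CPM in controls to 72.6 to 115 after LPS. So did Hsd17b4, from 155 to 180 CPM to 48.4 to 127, and Etfb, from 284 to 396 to 197 to 266. The share of all genes separated in this way is not given here. Neutrophil markers in these sums (3 to 6 of 8 detected, with Ly6g at 0 in every group) were at 57.3 to 75.4 and 67.0 to 84.9 CPM in controls and 177 to 218 and 207 to 262 after LPS, also without overlap, and their part in these values was not tested. Alveolar macrophage markers went from 19134 to 21185 and 17598 to 17827 CPM to 11403 to 12397 and 11778 to 17786. Acsl1, Acadl, Eci2, Cpt1a, Hsd17b4 and Etfb were singled out after their values were seen. Sftpc in these cells was at 0.501% to 26.5% of its AE2-like level, highest in the 11 cells of young LPS replicate 2, while Acsl1 was lower in AE2-like cells than in these sums in every library.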

How the data were processed

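Single-cell RNA-seq libraries were made with 10x Genomics chemistry from EpCAM-sorted lung cells and separated by hashtag. The authors deposited 8 tables of raw UMI counts per gene and cell barcode. Alignment and counting tools are listed in the submitters' processing notes as STAR and Cell Ranger (3.1.0) on build mm10, beside bcl2fastq, R 3.6.3, and Seurat in versions 3.1 and 3.1.5. The sources used here do not give how hashtags were assigned, whether reads of genes sharing sequence were split, or whether strand was used. Groups came from the labels, which tie each table to an age, a treatment and a lane.

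Barcodes with under 500 genes or over 20% mitochondrial UMIs were left out (2803 of 14048). The doublet caller marked 13 cells, under 0.5%, and was taken not to have worked, so an alternative drops the 312 cells in the top 3% of doublet scores. The 11232 cells left after both steps were clustered with scanpy 1.11.5 (2000 variable genes, 30 principal components, Leiden resolution 1) and named from marker lists; a cluster of 65 dividing cells got no name. UMIs were summed per library and class, genes filtered with filterByExpr, and groups compared with edgeR 4.0.16 (TMM, robust quasi-likelihood, 8 libraries, 4 residual degrees of freedom, Benjamini-Hochberg adjustment over all genes of the class). Standard errors were taken from the fold change and its F statistic. Alveolar macrophage-like cells were tested in the 4 control libraries alone, which held at least 20 cells each. Scripts were tested on simulated data. Totals of 269818 to 12789161 UMIs per AE2-like or ciliated-like sum set the precision; Poisson intervals and floors cover counting error only.

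Members and lists were chosen with earlier results of these data known. Named by rule were the genes called in AE2-like cells with a log2 fold change of at least 0.5, the most abundant gene of each role, Ppara and Ppargc1a, and of the wider list the 3 called genes with the largest change in each direction plus Pparg, Ppard, Pdk4 and 1 gene that is not reported here. Alternatives were DESeq2 1.42.0, its size factors in edgeR, scaling without the 10 most abundant genes, no filter, lane as a block, the compared groups alone, a 10% mitochondrial limit, the doublet scores, resolution 0.5 and each library left out. The comparison between classes, the naming of the dividing cells, the leaving out of single libraries for macrophages, and the alternatives for the wider list were chosen after seeing the data. The labels describe the lanes as a repeat of the whole experiment, so replicate numbers pair the libraries; lane differences of 2 groups correlated by -0.0294 to 0.143 over 11376 genes. Promoter windows are from RefSeq (GRCm38.p6) and gene positions from the GRCm38 annotation.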

Additional observations from a re-analysis of the deposited data

Results flagged for a closer look

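Of the 30 genes, 3 in the young and 6 in the old had an LPS effect that differed between AE2-like and ciliated-like cells, when the difference itself was tested in 1 edgeR fit with the library as a block. The share of all genes was 5.91% in the young and 9.94% in the old. Values are log2, AE2-like minus ciliated-like, with the SE. Acot1 differed by 1.43 ± 0.18 (edgeR adjusted p = 1.46e-12) in the young and 1.28 ± 0.17 (edgeR adjusted p = 4.98e-12) in the old, with lower levels after LPS in all 4 ciliated-like libraries. Hadh differed by 1.10 ± 0.19 (edgeR adjusted p = 9.73e-07) and 0.58 ± 0.18 (edgeR adjusted p = 0.0151). Acadl differed by 1.16 ± 0.19 (edgeR adjusted p = 1.4e-07) in the old, Decr1 by 1.25 ± 0.31 (edgeR adjusted p = 0.0016) in the old and Ech1 by 0.69 ± 0.21 (edgeR adjusted p = 0.025) in the young. Cd36, at -1.16 ± 0.30 (edgeR adjusted p = 0.00213), and Acsl5, at -0.72 ± 0.23 (edgeR adjusted p = 0.0203), had the more negative effect in old AE2-like cells. With DESeq2 the calls of Hadh, Decr1, Cd36 and Acsl5 in the old and Ech1 in the young were lost.

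Club cell markers in ciliated-like sums were at 4389 to 10833 CPM in young and 5974 to 7150.2 in old controls and at 2719 to 11153 and 13404 to 17776 after LPS, and their part in these differences was not tested. Acot1 and Acot2 can share reads, so the Acot1 values hold for the counts as deposited.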

How the results depend on the processing

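Over 65 single-gene results, 1087 recomputed values gave 925 on the same side of the threshold, 162 in the same direction but no longer called, and 0 reversed. In AE2-like cells, Acadl, Acaa1a, Hadh, Eci2, Decr1, Etfa, Acadvl and Acsl5 held in all 17 alternatives at both ages.

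Counts of members moved as follows, with the value by edgeR on all 8 libraries in brackets. DESeq2 gave 7 higher in old AE2-like cells after LPS (11), 0 lower in old than young AE2-like cells after LPS (1), 1 lower in old ciliated-like cells (3), 0 higher (2) and 1 lower (2) in young ones, 0 lower in old than young ciliated-like cells after LPS (1), and 2 higher (4) and 0 lower (2) in the old difference between classes. It called 3 PPAR targets higher in the young (6). With the compared groups alone, 5 were lower in young AE2-like cells (3), 0 lower in the old than young after LPS (1), 1 lower in old than young controls (0), and 1 higher in young ciliated-like cells (2). Without the filter, 2 were lower in old than young AE2-like cells after LPS (1). Leaving out the highest doublet scores gave 1 higher in young ciliated-like cells (2) and 1 lower in the old class difference (2). At resolution 0.5, 1 PPAR target was lower in the old (0). The cause was not tested.

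Leaving out each library gave, in AE2-like cells, 3 to 9 lower in the old, 1 to 5 lower in the young, 0 to 1 higher and 0 to 1 lower for the interaction, 0 to 6 lower in old than young after LPS, 0 to 1 lower in controls, and 3 to 6 PPAR targets higher in the young. In ciliated-like cells it gave 1 to 5 lower in the old, 1 to 2 higher and 1 to 2 lower in the young, and 0 to 1 higher and 0 to 1 lower in old than young after LPS. The class difference had 2 to 4 higher and 0 to 2 lower in the old and 0 to 1 lower in the young. A group with 1 library left is assumed to vary like the others.

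With the lane as a replicate block, which pairs the libraries, 1 gene was higher in young ciliated-like cells (2), and Cd36 (edgeR adjusted p = 0.0703) and Eci2 in ciliated-like cells (0.0573), Angptl4 (0.0835) and Pdk4 (0.0503) lost their young calls. No other named call ended. Ciliated-like sums were shallower than AE2-like sums, and the size of change detectable in them was not measured. Macrophages after LPS were too few for a test.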

Other observations

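The wider list of 103 genes was also read in ciliated-like cells, where 61 passed the filter. After LPS 1 rose and 5 fell in the young, beside 5.29% and 3.28% of all genes, and 1 rose and 5 fell in the old, beside 5.7% and 3.53%. The median log2 fold changes were -0.17 and -0.31, beside 0.003 and -0.010 over all genes. Of its PPAR target genes 6 were tested there. Of these, 1 was lower in the old by edgeR. A difference between the classes was not tested for this list.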
